A study of Mus musculus with 4 samples.

Results

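The gasdermin family of mouse epidermis was followed through 8 genes, chosen by their names in the deposited tables: Gsdma, Gsdma2, Gsdma3, Gsdmc, Gsdmc2, Gsdmc3, Gsdmc4 and Gsdmd, out of 54752 annotated genes. All 8 were listed in every library, and 7 of them passed the filter for testing, an FPKM above 0.5 in at least 1 library. Gasdermins are proteins whose amino-terminal domain can insert into membranes and assemble pores, and whose carboxy-terminal domain holds it inactive until a protease cuts the linker between them. The pores let small cargo such as mature interleukin 1 leave the cell and can lead to its lytic death, called pyroptosis. In skin, gasdermin A genes are known from keratinocytes and hair follicles, and mutations of mouse Gsdma3 that release its pore-forming domain cause hair loss and skin inflammation.

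RNA came from the epidermis of C57BL/6 pups at postnatal day 0. The Skiv2l fl/fl K14-Cre pups (n = 2), called knockouts here, carried floxed alleles of Skiv2l, the helicase that feeds RNA to the cytoplasmic exosome, together with a Cre recombinase driven by the keratin 14 promoter, so the deletion is directed to keratinocytes and other cells of the tissue keep the gene. The Skiv2l ctl pups (n = 2), called controls here, were littermates, a group in which the study pooled pups with floxed alleles but no Cre and heterozygous floxed pups with or without Cre, and which of these each control pup was is not given per sample. The question for this gene family was whether its RNA levels differed between the 2 genotypes.

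Skiv2l itself had an FPKM of 19.3 and 19.1 in controls and 10.8 and 8.55 in knockouts (log2 fold change -0.92, SE 0.12, limma adjusted p = 0.00368, 0.0562 and 0.0547 without the first or the second control library, and 0.0706 without the filter). The study reported depletion of SKIV2L protein, by western blot, in epidermis of knockout pups of this age, which an RNA level does not measure. FPKM is the number of fragments scaled for transcript length and for the size of the library. It lets levels of genes be compared, whereas comparisons between libraries also depend on the scaling chosen, as given below. The ratio of coverage to FPKM, which follows sequencing depth, was 5.84 to 6.27 in the 4 libraries. All 7 basal and all 7 spinous keratinocyte markers passed the filter. So did all 13 hair follicle and all 5 melanocyte markers, so passing it does not single out a cell type. The basal, spinous and granular keratinocyte lists had the highest sums of the marker lists. The summed FPKM of the 7 basal markers was 4729 to 4891 in controls and 9795 to 9798 in knockouts. The higher sum came from Krt14, at 1736 and 1812 in controls and 7381 and 7312 in knockouts. Krt5 had 2003 and 2075 in controls and 1761 and 1759 in knockouts and was not called. Krt15 fell from 462 and 428 to 92.1 and 155. Of the 7 markers 2 were called higher and 1 lower, and both knockouts lay above both controls for 2 and below for 3. The 7 spinous markers summed to 24428 to 25969 and 16992 to 20547, with 1 higher and 2 lower. The 10 granular markers summed to 6827 to 7288 and 5846 to 6372. Of these, 4 were called higher (Tgm1, Tgm3, Klk7 and Cdsn, at ratios of 1.47 to 1.69) and 3 lower (Lor, Flg2 and Casp14, at 0.368 to 0.676). The granular markers thus went both ways while the sum of their list was lower. The part of the cell layers in the gasdermin values was not tested. Sums for other cells were 30.5 to 41.9 and 17.4 to 19.5 for 10 leukocyte markers, 191 to 216 and 103 to 119 for 13 hair follicle markers (0 of 13 higher, 5 lower), and 61.3 to 69.0 and 21.9 to 25.0 for 6 fibroblast markers. The lower hair follicle markers (38.5%, beside 25.4% of all tested genes) included Gata3 (means 70.2 and 37.2) and Lef1 (32.6 and 9.25), which were large parts of that sum. Krt25, Krt28, Krt35, Krt73 and Foxn1 overlapped between genotypes, at ratios of 0.952 to 1.33. Dcn made up most of the fibroblast sum (57.0 and 62.7 in controls, 16.9 and 21.4 in knockouts), 2 of 5 tested fibroblast markers were lower, and Pdgfra had a ratio of 2.65. The 8 neutrophil markers summed to 0.701 to 1.38 and 6.34 to 7.54, and the higher sum came from Cxcr2, at 0.127 and 0.208 in controls and 6.51 and 5.56 in knockouts (log2 fold change 2.59, limma adjusted p = 0.000202), while Ly6g was listed at 0 in every library. In bulk tissue, fewer cells of a type and less RNA per cell cannot be told apart.

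The members lie in 3 places of the genome (GRCm38). Gsdma3 (chr11:98626360-98638226), Gsdma2 (chr11:98646759-98657964) and Gsdma (chr11:98664351-98677708) follow each other on the plus strand of chromosome 11. Gsdmc (chr15:63775968-63808759), Gsdmc2 (chr15:63824346-63845177), Gsdmc3 (chr15:63857724-63878558) and Gsdmc4 (chr15:63891264-63912297) form a row on the minus strand of chromosome 15. Gsdmd (chr15:75862327-75867408) stands on the plus strand of the same chromosome. In the GENCODE M21 annotation the longest coding transcript of each member has 11 to 14 exons and 1329 to 1461 coding bases, and no exon of a member overlaps an exon of another gene.

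The first 60 coding bases of the neighbouring genes are shown because they make visible how alike the copies are whose reads must be told apart. They were read from GRCm38 at the GENCODE M21 start codons, each from within 1 exon, 5′ to 3′ on the strand of the gene, and capitals mark bases that differ from the first gene of each set. The Gsdmc genes begin at chr15:63804533-63804592, chr15:63835884-63835943, chr15:63869238-63869297 and chr15:63902871-63902930, and the Gsdma genes at chr11:98666061-98666120, chr11:98649054-98649113 and chr11:98629352-98629411, in the order of the lines.
Gsdmc: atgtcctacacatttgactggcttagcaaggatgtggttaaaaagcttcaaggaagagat
Gsdmc2: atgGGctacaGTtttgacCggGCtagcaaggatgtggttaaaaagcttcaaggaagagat
Gsdmc3: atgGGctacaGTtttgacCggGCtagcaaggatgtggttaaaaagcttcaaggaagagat
Gsdmc4: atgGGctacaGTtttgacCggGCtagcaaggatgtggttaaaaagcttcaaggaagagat
Gsdma: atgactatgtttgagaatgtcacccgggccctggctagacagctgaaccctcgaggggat
Gsdma2: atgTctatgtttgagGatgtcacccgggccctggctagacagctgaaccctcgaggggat
Gsdma3: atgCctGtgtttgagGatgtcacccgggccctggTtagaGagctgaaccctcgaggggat

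In this window Gsdmc2, Gsdmc3 and Gsdmc4 were identical and differed from Gsdmc at 7 bases, whereas Gsdma2 and Gsdma3 differed from Gsdma at 2 and 5 bases. Over the whole coding sequence the closest pair was Gsdmc2 and Gsdmc3, with 97.1% of aligned bases identical, and both shared 93.8% with Gsdmc4. Gsdmc shared 87.0% with Gsdmc2, 87.2% with Gsdmc3 and 88.1% with Gsdmc4. Gsdma shared 91.4% with Gsdma2 and 89.8% with Gsdma3, while genes of different subfamilies shared 61.8% to 64.7%. Of the 75-base stretches of the transcripts, 39.3% of Gsdmc2, 35.8% of Gsdmc3 and 28.5% of Gsdmc4 also occurred in another gene, compared with 10.9% for Gsdmc, 3.43% for Gsdma, 2.65% for Gsdma2, 0.248% for Gsdma3 and none for Gsdmd. The read length is not given in the sources used here, and 75 bases was a length chosen for this count, on which the shares depend. How the deposited FPKM was divided among Gsdmc2, Gsdmc3 and Gsdmc4 is therefore uncertain.

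**Figure D1:**
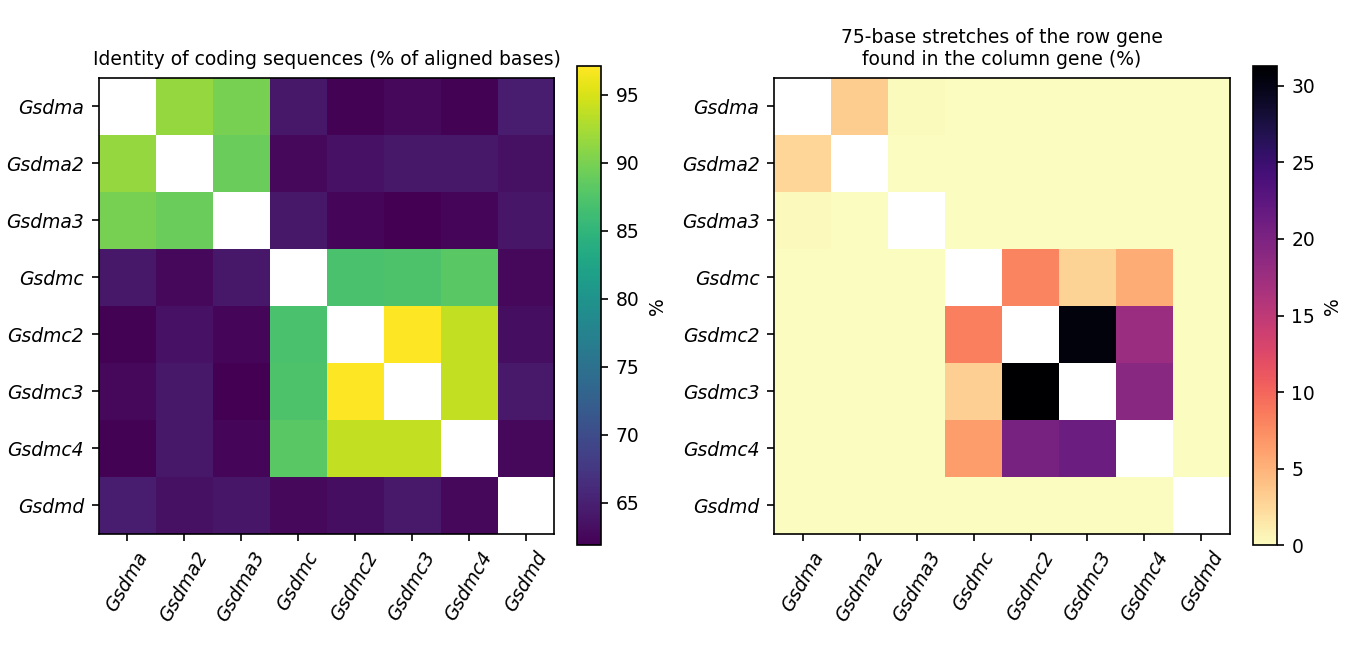
Left, identity between the coding sequences of each pair of members, in % of aligned bases. Right, the share of the 75-base stretches of the row gene's transcripts that also occur in transcripts of the column gene, in %. The Gsdma and Gsdmc subfamilies form separate blocks, and sharing of stretches is concentrated in Gsdmc2, Gsdmc3 and Gsdmc4.

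Gsdmc and Gsdma, at least 1 order of magnitude above every other member, rose in knockout epidermis, and no tested member fell. Gsdmc went from a mean FPKM of 76.4 to 116 and Gsdma from 76.1 to 101. Of the 7 members tested, 2 (28.6%) were called higher and 0 lower, against 8.99% higher and 25.4% lower among all 13609 protein-coding genes tested (limma on log2(FPKM + 1), a scale that understates the change of genes of low FPKM, adjusted p under 0.05). At an unadjusted p under 0.05 the counts were 3 and 0. Gsdmc3 and Gsdmc4 passed the filter only through 1 knockout library each, so counts over the tested members are a description.

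Both knockouts were above both controls for 5 of the 8 members, 4 of them tested, compared with 18.2% of all tested genes. The other 3 overlapped, and none lay below, where 55.3% of all tested genes lay. The median log2 fold change was 0.24 over the tested members and -0.20 over all tested genes, so each member's change is larger when read against the middle of the transcriptome. The member median is the value of Gsdmc3, which passed the filter only through 1 knockout library, and is likewise a description. With all libraries brought to an equal median FPKM, the median log2 fold change over all genes was -0.028, and the genes called went from 1223 higher and 3455 lower to 1894 higher and 1623 lower.

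**Figure D2:**
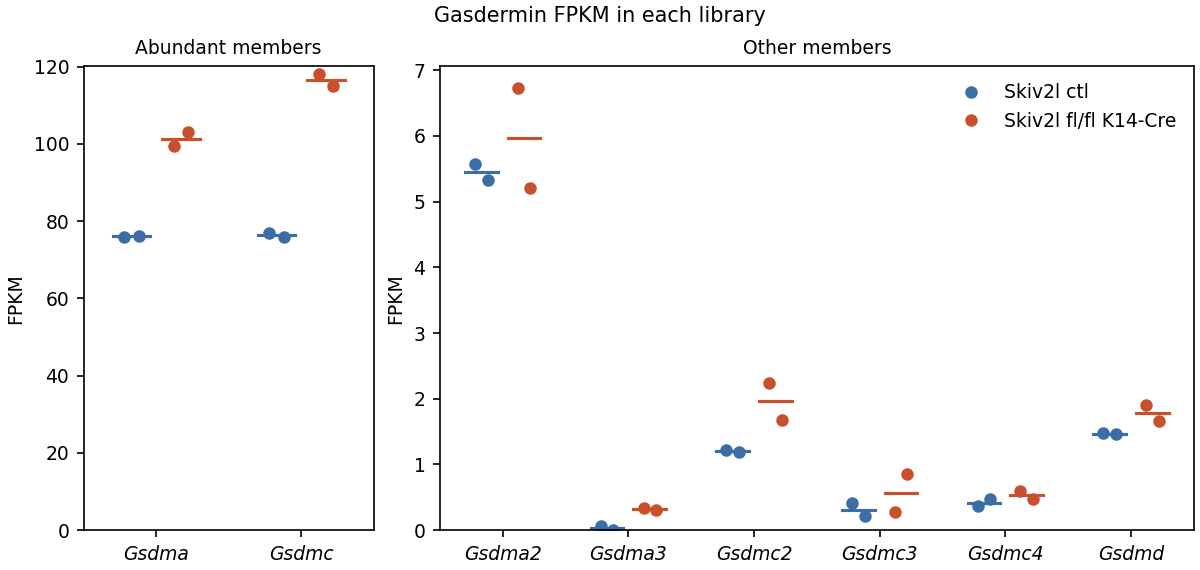
FPKM of each member in each library, with the 2 most abundant members at the left and the other 6 at the right on a smaller scale. Points are single pups (blue, Skiv2l ctl, and orange, Skiv2l fl/fl K14-Cre) and bars are the means of 2 pups. Gsdma and Gsdmc stand apart by genotype, and Gsdma2, Gsdmc3 and Gsdmc4 overlap.

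Gsdmc (ENSMUSG00000079025.9), which gives its name to the chromosome 15 row and whose human relative can be cut by caspase 8, had an FPKM of 77.0 and 75.8 in controls and 118 and 115 in knockouts. The libraries of a genotype lay close together and the genotypes were far apart. The means were 76.4 ± 0.819 and 116 ± 2.17 (SD, n = 2), a ratio of 1.52, and the log2 fold change was 0.60 (SE 0.076, limma adjusted p = 0.00302), or 0.80 relative to the median of all tested genes. Among tested genes its level ranked 582nd in controls and 343rd in knockouts. Its call held under all 14 alternatives, with log2 fold changes of 0.56 to 0.81 and limma adjusted p of 0.00108 to 0.0455.

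Gsdma (ENSMUSG00000017204.4), a keratinocyte gasdermin whose human relative can be cut and activated by a streptococcal protease, had an FPKM of 75.9 and 76.2 in controls and 99.4 and 103 in knockouts. As for Gsdmc, the 2 genotypes did not overlap. The means were 76.1 ± 0.213 and 101 ± 2.62 (SD, n = 2), a ratio of 1.33, and the log2 fold change was 0.41 (SE 0.077, limma adjusted p = 0.0111), or 0.61 relative to the median of all tested genes. Its rank by level went from 585th to 402nd. The call held under 12 of 14 alternatives and was lost without the first control library (log2 fold change 0.41, limma adjusted p = 0.0864) and without the second (0.41, limma adjusted p = 0.0840).

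Together Gsdma and Gsdmc made up 94.4% to 95.5% of the summed FPKM of the family. The family sum was 162 and 161 in controls and 230 and 228 in knockouts, a ratio of means of 1.42. In control epidermis the 2 genes could not be ranked, since the ratio of Gsdmc to Gsdma was 1.01 in the first library and 0.995 in the second. In knockout epidermis that ratio was 1.19 and 1.11, so Gsdmc was the higher of the pair in both libraries. The difference in the ratio was 0.146 (exact permutation test, two-sided p = 0.333, the smallest that 2 against 2 libraries can give).

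Gsdma2 (ENSMUSG00000017211.14), the next most abundant member, had an FPKM of 5.57 and 5.33 in controls and 6.72 and 5.21 in knockouts. The genotypes overlapped, with the second knockout library the lowest of the 4 and the first the highest. The log2 fold change was 0.10 (SE 0.14, limma adjusted p = 0.578). The deposited coverage of the same gene, scaled for depth, was 1.87 and 1.83 in controls and 2.25 and 2.50 in knockouts, so on this scale the genotypes did not overlap (log2 fold change 0.24, SE 0.084, limma adjusted p = 0.0865). The coverage per unit of FPKM was 2.05 and 2.15 in controls and 1.95 and 2.84 in knockouts. The 2 deposited measures therefore placed the second knockout library at opposite ends for this gene, which has 7 annotated transcripts.

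Gsdma3 (ENSMUSG00000064224.10), the gene of the hair loss mutants, had the lowest mean of the members in both genotypes, although in the first knockout library Gsdmc3 was lower. Its FPKM was 0.0657 in the first control library, was listed at 0 in the second, and was 0.342 and 0.308 in knockouts. The values of the 2 genotypes did not overlap, but all 4 were below the filter of 0.5 and the gene was not tested. In a fit of all protein-coding genes without the filter its log2 fold change was 0.36 (SE 0.043, limma adjusted p = 0.0571). The summed FPKM of the 3 Gsdma genes was 81.5 in each control and 106 and 109 in knockouts.

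Gsdmc2 (ENSMUSG00000056293.12) had an FPKM of 1.22 and 1.19 in controls and 2.25 and 1.68 in knockouts. Both knockouts were above both controls, with a log2 fold change of 0.42 (SE 0.15) that did not pass the test (limma adjusted p = 0.0727). It passed under this median scaling (0.55, limma adjusted p = 0.0395), under quantile normalization (0.62, limma adjusted p = 0.0216) and on depth-scaled coverage (0.37, limma adjusted p = 0.0458), and under none of the other 11 alternatives.

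Gsdmc3 (ENSMUSG00000055827.13) had an FPKM of 0.408 and 0.211 in controls and 0.282 and 0.850 in knockouts. Gsdmc4 (ENSMUSG00000055748.12) had 0.361 and 0.477 in controls and 0.600 and 0.469 in knockouts. Both overlapped between genotypes, and 1 knockout library was the highest of the 4 for each, the second for Gsdmc3 and the first for Gsdmc4. Their log2 fold changes were 0.24 (SE 0.22, limma adjusted p = 0.413) and 0.11 (SE 0.15, limma adjusted p = 0.573). Since Gsdmc2, Gsdmc3 and Gsdmc4 share much of their sequence, their sum is less open to how reads were divided among them. Of their 75-base stretches, 8.35% in Gsdmc2, 3.06% in Gsdmc3 and 6.46% in Gsdmc4 also occurred in Gsdmc, a far more abundant gene. Whether reads of Gsdmc entered the sum was not tested. Gsdmc2, Gsdmc3 and Gsdmc4 summed to 1.98 and 1.88 in controls and 3.13 and 2.995 in knockouts, a ratio of means of 1.59, beside 1.52 for Gsdmc alone. In the sum the genotypes did not overlap, as in Gsdmc2 alone, its largest part, and unlike in Gsdmc3 and Gsdmc4 singly. The sum was not tested.

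Gsdmd (ENSMUSG00000022575.5) encodes the gasdermin that inflammatory caspases cut in macrophages. Its FPKM was 1.48 and 1.46 in controls and 1.91 and 1.66 in knockouts. The 2 genotypes did not overlap, yet the difference was small against its error, with a log2 fold change of 0.17 (SE 0.13, limma adjusted p = 0.334).

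**Figure D3:**
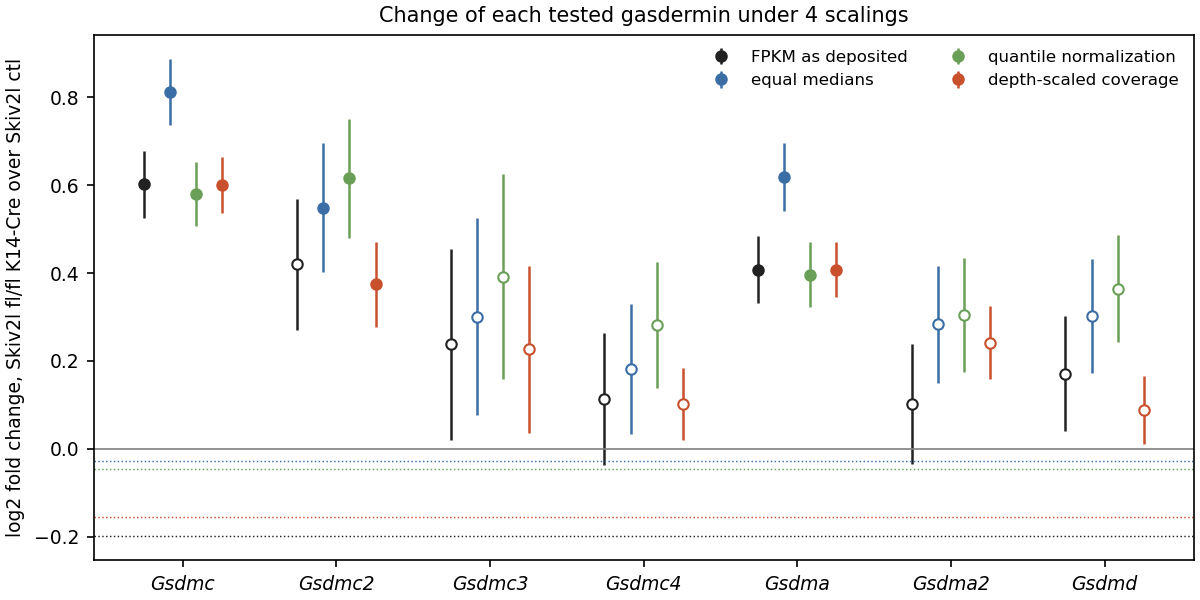
Log2 fold change of the 7 tested members (knockout over control, log2(value + 1)) with its SE under 4 scalings. Filled points passed an adjusted p under 0.05 in limma, and dotted lines mark the median over all tested genes under each scaling. Gsdmc and Gsdma passed under each of the 4, Gsdmc2 under 3 of them, and the other members under none.

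In order of level, control epidermis had Gsdmc and Gsdma together at the top, then Gsdma2, Gsdmd, Gsdmc2, the overlapping pair Gsdmc4 and Gsdmc3, and Gsdma3. In knockout epidermis Gsdmc stood above Gsdma, followed by Gsdma2, the overlapping pair Gsdmc2 and Gsdmd, and then Gsdmc3, Gsdmc4 and Gsdma3, of which Gsdmc3 overlapped with both of the others. Gsdmd thus stood above Gsdmc2 in both controls, and in knockout epidermis the values of the 2 genes overlapped.

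Of the related genes outside these 8, Gsdme had an FPKM of 1.18 and 1.32 in controls and 1.38 and 0.785 in knockouts. The genotypes overlapped (log2 fold change -0.12, SE 0.18, limma adjusted p = 0.606). Pjvk, a family member of the inner ear, was at most 0.0542, and the Gsdmc-like genes Gsdmcl1, Gsdmcl2 and Gsdmcl-ps were at most 0.214 in every library. Only Gsdme among these 5 genes passed the filter.

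No gene around the gasdermins in pyroptosis was called higher on the deposited FPKM scale. In 5 lists covering proteases, inflammasome parts, released cargo, membrane rupture and repair, and regulators of gasdermin D, 57 genes were listed and 42 tested. By limma 0 were called higher, beside 8.99% of all tested genes, and 9 (21.4%) lower, near the 25.4% of all tested genes. Both knockouts were above both controls for 11 of the 42 and below for 19, beside 18.2% and 55.3% of all tested genes. At an unadjusted p under 0.05 the counts were 3 higher and 14 lower, and the median log2 fold change was -0.11, beside -0.20 over all tested genes. Under median scaling 7 were called higher and 3 lower, and under quantile normalization 2 higher and 4 lower. The 3 genes lower in the median-scaled fit, Casp1, Nlrp10 and Hmgb1, were also lower under quantile normalization. Without the filter on low values Casp1 and Vps4a kept their calls, and the other 7 did not, with limma adjusted p of 0.0532 for Hmgb1, 0.0647 for Nlrp10 and 0.108 to 0.168 for the rest.

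Among the proteases that cut gasdermins, Casp1, which encodes caspase 1, had an FPKM of 4.995 and 5.21 in controls and 1.68 and 1.52 in knockouts. Both knockouts were far below both controls, and Casp1 fell by 1.23 on the log2 scale (SE 0.12, limma adjusted p = 0.00122). It was the only called gene of the 4 tested in this list (25.0% lower, beside 25.4% of all tested genes). Casp8, for caspase 8, had 12.9 and 13.2 in controls and 13.9 and 14.1 in knockouts (log2 fold change 0.093, limma adjusted p = 0.432). Casp4, whose mouse product is caspase 11, had 0.169 and 0.799 in controls and 1.49 and 0.365 in knockouts. Its genotypes overlapped (log2 fold change 0.35, SE 0.33, limma adjusted p = 0.440). The neutrophil and lymphocyte proteases Elane and Gzmb were listed at 0 in all 4 libraries, and Ctsg and Gzma did not exceed 0.0684.

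Of 15 inflammasome sensors and adaptors 4 were tested. Of these, 3 were called lower and 0 higher, beside 25.4% and 8.99% of all tested genes. Nlrp10, a NOD-like receptor of epidermis, had an FPKM of 25.7 and 24.4 in controls and 8.74 and 5.77 in knockouts (log2 fold change -1.68, SE 0.17, limma adjusted p = 0.00157). Aim2, a sensor of cytoplasmic DNA, had 2.11 and 2.89 in controls and 1.39 and 0.932 in knockouts (-0.69, SE 0.18, limma adjusted p = 0.0288). On depth-scaled coverage the fall of Aim2 was smaller (-0.30, SE 0.059, limma adjusted p = 0.0245). Pycard, which encodes the adaptor ASC, had 22.6 and 24.3 in controls and 17.5 and 14.5 in knockouts (-0.53, SE 0.11, limma adjusted p = 0.0169). All 3 had both knockouts below both controls, as did 55.3% of all tested genes. Aim2 lost its call under both scalings, with limma adjusted p of 0.0595 and 0.0708, and without either control or the second knockout library (0.0737 to 0.156). Pycard lost it under median scaling (limma adjusted p = 0.0693) and without either control (0.0956 and 0.129). Nek7, a kinase that the NLRP3 sensor needs, had a log2 fold change of 0.16 (limma adjusted p = 0.231).

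The sensors Nlrp3 and Nlrp1b were low in all libraries. Nlrp3 had an FPKM of 0.196 and 0.151 in controls and 0.172 and 0.0534 in knockouts, and Nlrp1b had 0.223 and 0.304 in controls and 0.0582 and 0.0868 in knockouts. Neither passed the filter. The leukocyte marker sum was lower in knockout epidermis in the same direction as Casp1, Aim2, Pycard and Nlrp10: of 7 leukocyte markers tested, 3 (Ptprc, Cd74 and Csf1r) were lower and 0 higher, beside 25.4% lower among all tested genes. The most abundant, Cd74, had 13.1 and 16.4 in controls and 4.605 and 4.39 in knockouts, Itgam had a ratio of 0.954, Lyz2 overlapped between genotypes, and Cd3e and Adgre1 were not called. Of the 10 markers none was at 0 in all libraries. Its part in these differences was not tested.

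Of the cargo, the 5 genes listed were all tested. Of these, 1 (20.0%) was called lower and 0 higher, beside 25.4% and 8.99% of all tested genes. Hmgb1, a chromatin protein that acts as an alarmin once outside the cell, had an FPKM of 115 and 127 in controls and 64.9 and 71.8 in knockouts (log2 fold change -0.82, SE 0.095, limma adjusted p = 0.00227). On depth-scaled coverage the fall of Hmgb1 was smaller (-0.37, SE 0.063, limma adjusted p = 0.0183). Il18, for interleukin 18, had 37.1 and 39.3 in controls and 37.6 and 24.8 in knockouts. Its genotypes overlapped and the difference missed the threshold (-0.31, SE 0.18, limma adjusted p = 0.225), whereas without the first knockout library it was -0.60 (limma adjusted p = 0.0116) and without the second -0.022 (limma adjusted p = 0.864). Il1b, for interleukin 1 beta, was low throughout, with 0.506 and 0.288 in controls and 0.452 and 0.237 in knockouts (limma adjusted p = 0.818).

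All 17 genes of membrane rupture and of the ESCRT-III machinery, which sheds damaged membrane, were tested. Of these, 2 (11.8%) were called lower and 0 higher, beside 25.4% and 8.99% of all tested genes. Under median scaling none of the 17 was called lower, and Chmp1b, Chmp2b, Pdcd6 and Pdcd6ip were called higher. Ninj1, whose product ruptures the plasma membrane late in lytic death, had an FPKM of 7.37 and 8.20 in controls and 6.08 and 5.30 in knockouts (log2 fold change -0.39, SE 0.12, limma adjusted p = 0.0447). Vps4a, an ATPase that takes ESCRT-III filaments apart, had 14.2 and 14.7 in controls and 10.9 and 10.7 in knockouts (-0.39, SE 0.090, limma adjusted p = 0.0216). Both lost their calls under median scaling, quantile normalization and without either control, with limma adjusted p of 0.117 to 0.253, and the call of Ninj1 was kept under only 4 of the 14 alternatives. Among 12 regulators of gasdermin D, 2 (16.7%) were called lower and 0 higher, beside 25.4% and 8.99% of all tested genes. The 2 encode subunits of the Ragulator complex of lysosomes. Its other listed subunits, Lamtor1, Lamtor3 and Lamtor5, had log2 fold changes of 0.036, 0.13 and 0.0036 and were not called. Lamtor3 was called higher under median scaling (0.33, limma adjusted p = 0.0478). Lamtor2 had 24.2 and 24.6 in controls and 16.0 and 18.8 in knockouts (-0.47, SE 0.10, limma adjusted p = 0.0193). Lamtor4 had 12.7 and 11.9 in controls and 9.21 and 7.67 in knockouts (-0.50, SE 0.12, limma adjusted p = 0.0217). Neither call held under median scaling (limma adjusted p = 0.132 and 0.0980), quantile normalization (0.0529 and 0.0802), or without either control (0.118 to 0.154), and that of Lamtor4 was also lost without the second knockout library (0.0539).

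**Figure D4:**
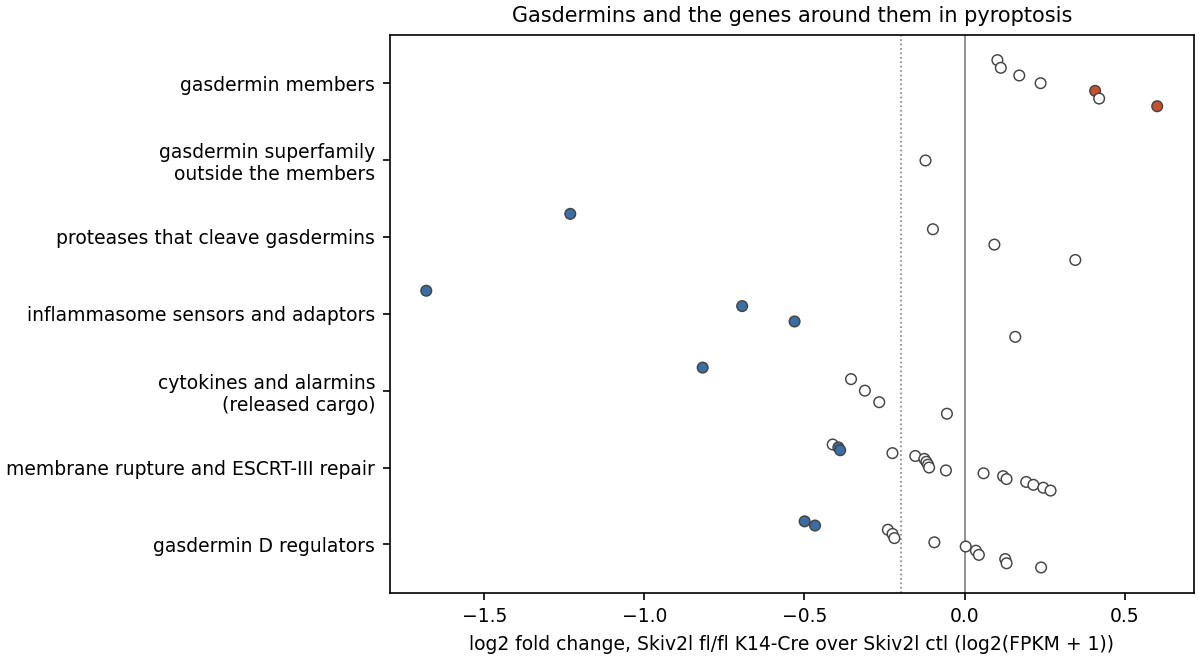
Log2 fold change (knockout over control, log2(FPKM + 1)) of the tested gasdermins and of the tested genes of each pathway list, 1 point per gene. Red points were called higher and blue points lower (limma adjusted p under 0.05), white points were not called, and the dotted line is the median of all 13609 tested genes, -0.20. The gasdermins lie to the right of 0, and the largest falls are Nlrp10 and Casp1.

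Of the 12 protein-coding genes that flank the members, 10 were tested. Of these, 1 was called higher and 3 lower, close to the 8.99% higher and 25.4% lower of all tested genes. Next to the Gsdma cluster, Gm12355, 699 bases from Gsdma3, fell (FPKM 1.49 and 1.32 in controls, 0.670 and 0.690 in knockouts, log2 fold change -0.52, SE 0.14, limma adjusted p = 0.0309). Psmd3, a proteasome subunit gene 4846 bases beyond Gsdma, had 75.8 and 81.7 in controls and 80.7 and 76.5 in knockouts (log2 fold change -0.0016, limma adjusted p = 0.990). The level of Psmd3 was thus close to that of Gsdma in controls, and its genotypes overlapped where those of Gsdma did not.

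Beside the Gsdmc cluster, Fam49b, 16800 bases from Gsdmc4, had an FPKM of 10.3 and 9.20 in controls and 10.8 and 9.24 in knockouts and was not called (limma adjusted p = 0.858). Asap1, a GTPase-activating protein gene 174560 bases away, rose from 12.3 and 13.0 to 25.5 and 28.4 (log2 fold change 1.03, SE 0.097, limma adjusted p = 0.00115). On the side of Gsdmc the nearest protein-coding genes were Myc, 1785594 bases away, and A1bg, 2852956 bases away. Myc, the transcription factor gene, overlapped between genotypes (limma adjusted p = 0.410), and A1bg fell (log2 fold change -0.65, SE 0.18, limma adjusted p = 0.0353). A1bg was low, with an FPKM of 0.785 and 0.975 in controls and 0.352 and 0.0644 in knockouts, the latter both below the filter of 0.5. Near Gsdmd, Mafa fell (-0.97, SE 0.13, limma adjusted p = 0.00365), and Zc3h3, Mroh6 and Naprt did not pass (limma adjusted p = 0.334, 0.223 and 0.114).

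Among the 5 tested genes whose levels ran closest to those of Gsdmc over the 4 libraries, by Euclidean distance of log2(FPKM + 1), were Furin (0.160), Atp2a2 (0.192), Lgalsl (0.223) and Aldh3b2 (0.234). Furin, a proprotein convertase gene, had an FPKM of 79.5 and 83.1 in controls and 125 and 116 in knockouts. For Gsdma the closest were Cpa4 (0.0668), Sidt2 (0.0886), Rab5c (0.121), Fgfbp1 (0.123) and Klk11 (0.154), and Cpa4, a carboxypeptidase gene, had 76.3 and 78.1 in controls and 95.9 and 101 in knockouts. Gsdma was 12th in order for Gsdmc, and Gsdmc 24th for Gsdma, at a distance of 0.291. Distances over 4 libraries of 2 genotypes are a description of likeness in level and change.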

How the data were processed

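Total RNA from the epidermis of 4 pups at postnatal day 0 was sequenced, and 1 table per pup was used. The authors made the tables with the RNA-seq workflow of their institution on GRCm38. The aligner, the counter, their versions and the strandedness are not given in the sources used here. The FPKM deposited by the authors is a level per transcript length and library size. The TPM deposited by the authors has an equal sum in every library, and the coverage deposited by the authors is read depth per base, not scaled for library size. No counts were used, so counting error could not be computed, and the number of pups limits the precision. Coordinates matched GENCODE M21 for 54029 of 54752 genes.

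FPKM was summed per gene identifier. Protein-coding genes (21921 in GENCODE M21) with FPKM above 0.5 in at least 1 library, 13609 in all, entered an unpaired, two-sided limma fit (version 3.58.1, R 4.3.3, with a mean-variance trend in eBayes) of log2(FPKM + 1), with p-values adjusted over all of them by Benjamini-Hochberg and a threshold of 0.05. This scale understates the change of genes of low FPKM. The script was tested on simulated data. Depth-scaled coverage is coverage divided by the ratio of coverage to FPKM of the library. Transcripts and coding sequences came from GENCODE M21 and were aligned with Biopython 1.88.

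The 8 members, the pathway and marker lists and the rule for named genes were chosen with earlier results of these data known. Named were the members, their relatives outside the 8, every called gene of a pathway list, core genes of pyroptosis, 2 flanking genes on each side of a cluster, the 5 genes closest to Gsdma and Gsdmc, and the most abundant markers of a list. The choice of Nek7, Lamtor1, Lamtor3, Lamtor5, Chmp1b, Chmp2b, Pdcd6 and Pdcd6ip and of the other markers came after seeing their values. Some genes that this rule selects are not reported here. Replicate numbers come from the sample titles and name different pups. Alternatives were a pseudocount of 0.1, FPKM above 1 in at least 2 libraries, no filter, all annotated genes, eBayes without a trend, TPM, quantile normalization, scaling to equal medians, a block for the replicate number and leaving out each library. Depth-scaled coverage was added after seeing the data.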

Additional observations from a re-analysis of the deposited data

How the results depend on the processing

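With 2 pups per genotype, leaving out 1 leaves a lone pup that is assumed to vary like the other group, and no counts were at hand to judge the low values of Gsdma3, Gsdmc3 and Gsdmc4. The counts of all genes called were 475 higher and 927 lower without a filter, 1894 and 1623 under median scaling, 1917 lower under quantile normalization, and 497 to 1146 higher and 805 to 3135 lower when each library was left out in turn. Members called higher were 1 to 2 when each library was left out. Pathway genes called lower were 2 without a filter, 3 under median scaling, 4 under quantile normalization and 3 to 12 with a library left out, and those called higher were 7 under median scaling, 2 under quantile normalization and 1 on depth-scaled coverage, an alternative chosen after seeing the data. The cause was not tested. Signs turned for uncalled genes only: Gsdme (log2 fold change 0.072 under quantile normalization), Il1b (0.097 under quantile normalization) and, when each library was left out in turn, Gsdma2 (-0.055 to 0.26), Gsdmc3 (-0.027 to 0.50), Gsdme (-0.33 to 0.085), Casp4 (-0.087 to 0.78) and Il1b (-0.17 to 0.060). With the replicate number as a block, 1264 genes were higher and 3393 lower and 8 pathway genes were lower, Ninj1 being lost (limma adjusted p = 0.0558). Deviations of same-numbered libraries correlated at -0.077 over 13609 genes. With 2 libraries per genotype this value cannot show whether same-numbered pups shared a litter or a processing batch, which the labels do not give.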
